A study of Mus musculus with 12 samples.

Results

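The constant genes of the gamma-delta T cell receptor and 3 genes that shape gamma-delta thymocytes were followed in thymocytes of mice with and without the miR-181a/b-1 cluster. The 7 genes were chosen by name and matched by symbol and Ensembl ID, out of 55335 gene rows: Trdc (ENSMUSG00000104876.1), Tcrg-C1 (ENSMUSG00000076749.2), Tcrg-C2 (ENSMUSG00000076752.2), Tcrg-C4 (ENSMUSG00000076757.9), Sox13 (ENSMUSG00000070643.11), Blk (ENSMUSG00000014453.4) and Maf (ENSMUSG00000055435.6). All 7 had enough reads to be tested in both assays. Thymocytes came from 3 wild-type (WT) mice and 3 mice lacking miR-181a/b-1 (KO), aged 6 weeks and kept free of specific pathogens. Cells of both genotypes were strained from the thymus and immersed directly in saline holding cycloheximide at 0.1 mg/ml, a drug that halts ribosomes on the mRNA. Each genotype has 3 RNA-seq libraries and 3 ribosome footprint libraries, 12 in all. Footprints are the mRNA fragments shielded by ribosomes, so they are read here as mRNA that is being translated. The labels do not state the background strain, the cells in which the deletion arose, or whether same-numbered RNA-seq and footprint libraries came from the same mouse.

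A T cell receptor pairs either an alpha with a beta chain or a gamma with a delta chain. Trdc encodes the constant region of the delta chain, and the Tcrg-C genes encode alternative constant regions of the gamma chain, each joined by recombination to its own group of variable and joining segments. Gamma-delta T cells arise from early double-negative thymocytes and are a small minority among thymocytes, most of which are CD4+ CD8+ and bear alpha-beta receptors. Sox13 and Maf are transcription factors of the gamma-delta lineage, needed for the subset that makes interleukin-17. Blk is a Src-family tyrosine kinase best known from B cells, and is also used by interleukin-17-producing gamma-delta thymocytes. MiR-181a tunes the strength of T cell receptor signals in thymocytes and is needed for natural killer T (NKT) cell development. Whole thymocytes were sequenced, so fewer gamma-delta cells and less RNA per cell cannot be told apart.

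The sequences deleted and those left behind frame the comparison, so the mature miR-181 forms are given from RefSeq (GRCm38.p6), with the seed, bases 2 to 8, in capitals. The miR-181a and miR-181b forms are each listed at 2 loci, of which Mir181a-1 and Mir181b-1 are the deleted ones, and Mir181c and Mir181d make the other two. All 4 mature forms carry 1 shared seed.
mmu-miR-181a-5p: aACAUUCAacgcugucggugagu
mmu-miR-181b-5p: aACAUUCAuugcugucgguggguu
mmu-miR-181c-5p: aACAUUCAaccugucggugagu
mmu-miR-181d-5p: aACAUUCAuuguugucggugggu

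In footprint libraries the Mir181a-1 row held 148 ± 16.8 CPM (read counts scaled to a common library total) in WT against 0.828 ± 0.317 CPM in KO (SD, n = 3 each). In RNA-seq the same row held 2.81 ± 1.62 (SD, n = 3) and 3.27 ± 1.59 CPM (SD, n = 3), so it does not check the genotype of the libraries labelled WT and KO there. The row is of a microRNA gene, so not every read of a footprint library comes from translated mRNA. Reads counted in genes ranged from 4479182 to 8180286 per RNA-seq library and from 4069968 to 17859770 per footprint library, with KO 3 the shallowest footprint library. The thymocyte markers summed to 14778 to 16922 CPM in RNA-seq, so the labelled cell type was plain in every library. Summed over the 7 genes themselves, the level was 106 to 115 CPM in WT and 111 to 120 CPM in KO RNA-seq, and 162 to 203 CPM in WT and 150 to 190 CPM in KO footprints.

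Libraries of the same number stood apart from their groups in a mirrored way, which touches every test below. Across 5701 well-expressed genes in RNA-seq, the deviation of a WT library from its group mean correlated between -0.99 and -0.98 with that of the KO library of the same number, and across 5339 genes in footprints between -0.995 and -0.994. Both are correlations over genes, which do not count as replicates, and differently numbered libraries gave 0.10 to 0.75 and 0.40 to 0.64. The labels name the deposited count tables as adjusted, and the adjustment is not given in the sources used here. Its part in the mirroring was not tested. The 7 genes showed it too: Trdc RNA-seq levels spanned 10.2% over the 6 libraries, while the geometric means of the 3 same-numbered WT and KO pairs were 65.1, 65.0 and 64.9 CPM, a span of 0.224%. Over the 7 genes and both assays, the span of those means was 0.209% to 3.98%. The spread within a group may therefore not be the spread between mice, and each test is given without a block and, where its call or count differs, also with replicate number as the block.

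**Figure D1:**
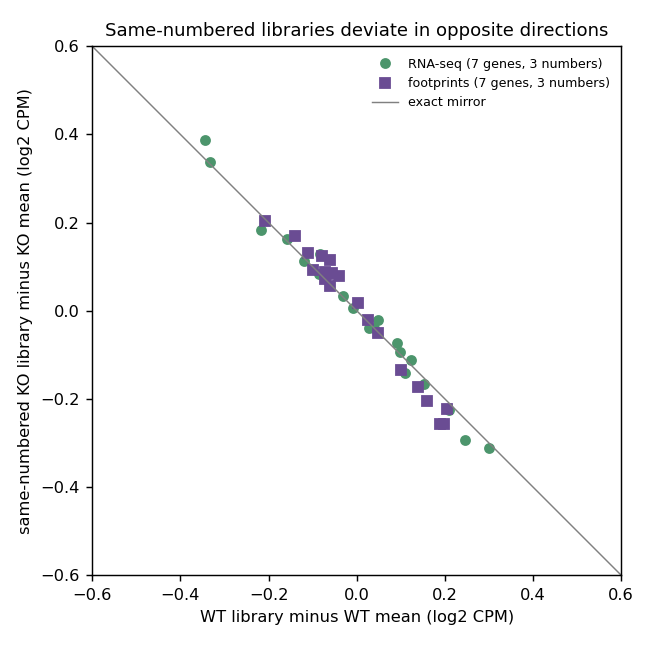
Each point is 1 of the 7 genes at 1 replicate number; the x axis is the WT library's log2 CPM minus the WT mean, and the y axis is the same for the KO library of that number, in RNA-seq (circles) and footprints (squares). The points lie close to the line of exact mirroring, as the pair means, spanning at most 3.98%, also show.

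The delta constant gene was nearly level between genotypes. In RNA-seq, Trdc stood at 62.0, 65.1 and 62.9 CPM in the WT libraries and at 68.3, 64.9 and 67.0 CPM in the KO libraries. The groups overlapped only through WT 2 and KO 2. The difference was 0.08 ± 0.05 (log2, KO minus WT, SE; 95% interval -0.05 to 0.20; adjusted p = 0.446, edgeR quasi-likelihood test with Benjamini-Hochberg adjustment over all genes, as throughout). Trdc was the most tightly bounded of the 7 genes in RNA-seq, with 2592 reads. With the block its SE was 0.14 and its 95% interval -0.23 to 0.38. In footprints, Trdc stood at 116, 135 and 155 CPM in WT and at 140, 123 and 104 CPM in KO. KO 3 was lowest and WT 3 highest, and the groups overlapped, with a difference of -0.13 ± 0.13 (log2, SE, 95% interval -0.45 to 0.20, edgeR adjusted p = 0.573).

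None of the gamma constant genes passed the test in either assay, and differences between them were not tested. Tcrg-C4 did not overlap between genotypes in RNA-seq, and the other sets overlapped. Tcrg-C1 RNA-seq levels were 8.11, 9.76 and 9.37 CPM in WT and 9.07, 7.34 and 7.98 CPM in KO. In footprints Tcrg-C1 was at 9.45, 10.01 and 11.9 CPM in WT and at 11.2, 10.6 and 8.35 CPM in KO. Both assays gave overlapping groups for this gene, with differences of -0.15 ± 0.12 (log2, SE, edgeR adjusted p = 0.589) in RNA-seq and 0.01 ± 0.13 (SE, edgeR adjusted p = 0.977) in footprints.

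Tcrg-C2 was at 11.3, 8.23 and 11.98 CPM in WT RNA-seq and at 12.1, 16.6 and 11.2 CPM in KO. KO 2 was the high library and WT 2 the low one, and the difference of 0.31 ± 0.20 (log2, SE, edgeR adjusted p = 0.406) fell to 0.15 without KO 2. In footprints the gene varied little, from 13.4 to 14.5 CPM in WT and from 14.2 to 15.5 CPM in KO. That difference was 0.07 ± 0.07 (log2, SE, 95% interval -0.09 to 0.24, edgeR adjusted p = 0.532).

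Tcrg-C4 stood at 5.41, 4.88 and 5.65 CPM in WT RNA-seq and at 7.02, 7.81 and 6.86 CPM in KO. All 3 KO libraries lay above all 3 WT libraries, which is also the case for 15.5% of all genes tested in RNA-seq, and 30.9% did not overlap in either direction. The difference was 0.43 ± 0.11 (log2, SE, 95% interval 0.16 to 0.70), which did not pass the test (edgeR adjusted p = 0.131). With the block the 95% interval was -0.14 to 1.02. In footprints Tcrg-C4 was at 6.30, 6.32 and 7.30 CPM in WT and at 8.53, 8.51 and 7.12 CPM in KO. KO 3 fell inside the WT range there, and the difference was 0.33 ± 0.10 (log2, SE, edgeR adjusted p = 0.0691, and 0.495 with the block). When all 12 libraries were fitted together, sharing 1 estimate of the spread, the footprint difference passed, with an edgeR adjusted p of 0.0475. That fit used no block and counted all 12 as independent, and whether the assays shared mice is not stated.

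Taken as shares of the reads over the 4 Tcrg-C rows, Tcrg-C4 made up 20.8% to 21.8% in WT and 24.4% to 26.3% in KO RNA-seq, and 20.7% to 21.6% in WT and 23.6% to 24.7% in KO footprints. These Tcrg-C4 shares did not overlap between genotypes in either assay. The Tcrg-C1 shares were also separated in RNA-seq, in the opposite direction: the lowest WT share was 32.7% and the highest KO share 31.6%. All other sets of shares overlapped. The shares of a library are parts of 1 total, so a higher Tcrg-C4 share can go with a lower Tcrg-C1 share. No test was run on the shares. The summed level of the 4 rows was 25.0 ± 2.00 CPM in WT against 28.9 ± 2.95 CPM in KO RNA-seq (SD, n = 3 each), and 31.3 ± 2.18 and 33.3 ± 2.74 CPM (SD, n = 3 each) in footprints. Tcrg-C3, the remaining row, had only 7 RNA-seq and 25 footprint reads over all libraries. The Tcrg-C genes are similar in sequence, and how reads matching several of them were assigned is not given in the sources used here. Reads listed as not uniquely aligned were 13.1% to 20.5% of an RNA-seq library and 17.7% to 18.6% of a footprint library, so the split among these genes is uncertain.

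**Figure D2:**
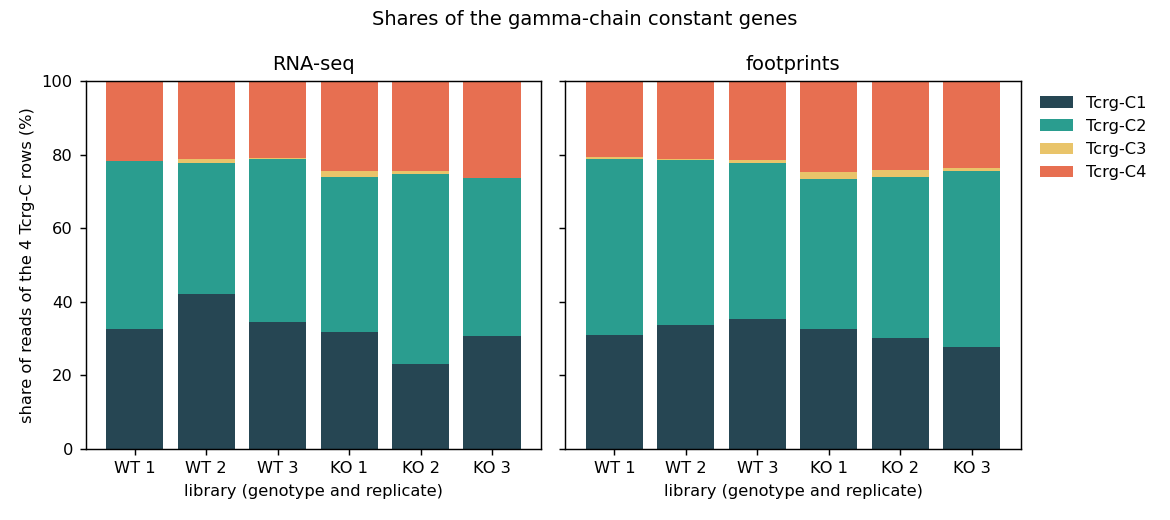
Stacked bars give, for each library, the share (%) of reads over the 4 gamma-chain constant rows that fell on each row, in RNA-seq and in footprints. The top segment, Tcrg-C4, is 20.7% to 21.8% in the WT libraries and 23.6% to 26.3% in the KO libraries.

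Among the regulators, Sox13 and Maf did not pass the test in either assay. Sox13, a SoxD-group factor, stood at 6.68, 9.07 and 10.1 CPM in WT RNA-seq and at 7.61, 5.45 and 4.74 CPM in KO. KO 1 lay above WT 1, and the other 4 libraries were separated, WT above KO. The difference was -0.54 ± 0.23 (log2, SE, 95% interval -1.09 to 0.00, edgeR adjusted p = 0.213), and it ranged from -0.78 to -0.37 when 1 library was left out. In footprints Sox13 was at 5.04, 4.92 and 6.06 CPM in WT and at 5.75, 5.78 and 4.42 CPM in KO. Those groups overlapped throughout, with a difference of 0.07 ± 0.13 (log2, SE, edgeR adjusted p = 0.747).

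Maf was at 9.22, 9.34 and 10.9 CPM in WT RNA-seq and at 9.95, 9.94 and 8.36 CPM in KO. In footprints it was at 6.30, 5.26 and 5.40 CPM in WT and at 4.92, 6.04 and 6.14 CPM in KO. The genotypes overlapped in both assays, and the differences were -0.08 ± 0.12 (log2, SE, edgeR adjusted p = 0.763) in RNA-seq and -0.01 ± 0.13 (SE, edgeR adjusted p = 0.979) in footprints.

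Blk was the 1 gene of the 7 that passed the test, and only in footprints. Its footprints stood at 3.55, 3.97 and 3.60 CPM in WT and at 5.57, 4.87 and 5.65 CPM in KO. All 3 KO libraries lay above all 3 WT libraries, as they did for 18.5% of all genes tested in footprints. Blk rose by 0.50 ± 0.11 (log2, SE, 95% interval 0.24 to 0.75, edgeR adjusted p = 0.0239), on 329 footprint reads over the 6 libraries. With the replicate block the size was 0.51 with a 95% interval of -0.02 to 1.04 (edgeR adjusted p = 0.328), and DESeq2 gave an adjusted p of 0.252. Leaving out any 1 of the 6 libraries also ended the call, with a size of 0.46 to 0.58 and edgeR adjusted p from 0.0512 to 0.102.

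In RNA-seq Blk was at 3.18, 3.49 and 4.55 CPM in WT and at 6.14, 5.92 and 4.37 CPM in KO. KO 3 lay below WT 3, and the difference of 0.52 ± 0.20 (log2, SE) did not pass (edgeR adjusted p = 0.186). B cells in the thymus also express Blk, and 9 B cell markers were measured in the same libraries. Their summed level was 17.2 to 27.4 CPM in WT and 22.7 to 34.2 CPM in KO RNA-seq, and 52.1 to 71.6 CPM in WT and 67.5 to 94.0 CPM in KO footprints. Of these 9, Cd79b was called higher in KO footprints, also with the block, at 34.4 ± 1.67 CPM in WT against 47.6 ± 2.48 CPM in KO (SD, n = 3 each), and no other was called in either assay. In footprints 9.25% of all genes were called higher, and with the block 3.02% in either direction. Ms4a1, which encodes the B cell antigen CD20, was at 7.68 ± 2.64 CPM in WT against 7.26 ± 3.09 CPM in KO footprints (SD, n = 3 each), and none of the 9 was at 0 in all libraries. Markers of double-negative thymocytes, from which gamma-delta cells arise, summed over 8 genes to 160 to 175 CPM in WT and 204 to 225 CPM in KO RNA-seq, and to 275 to 296 CPM in WT and 301 to 323 CPM in KO footprints. Of these, 1 of 7 tested in RNA-seq and 1 of 8 tested in footprints was called higher, also with the block, and 0 lower. Over all genes, 3.48% and 9.25% were called higher, and with the block 0.806% and 3.02% in either direction. Not all 8 markers rose: in RNA-seq and footprints, Hes1 stood at -0.13 and -0.37 and Il7r at -0.08 and -0.21 (log2). Cd44 stood at 0.06 in both, and none of these was called. The part of B cells or double-negative cells in the Blk and Tcrg-C4 differences was not tested.

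**Figure D3:**
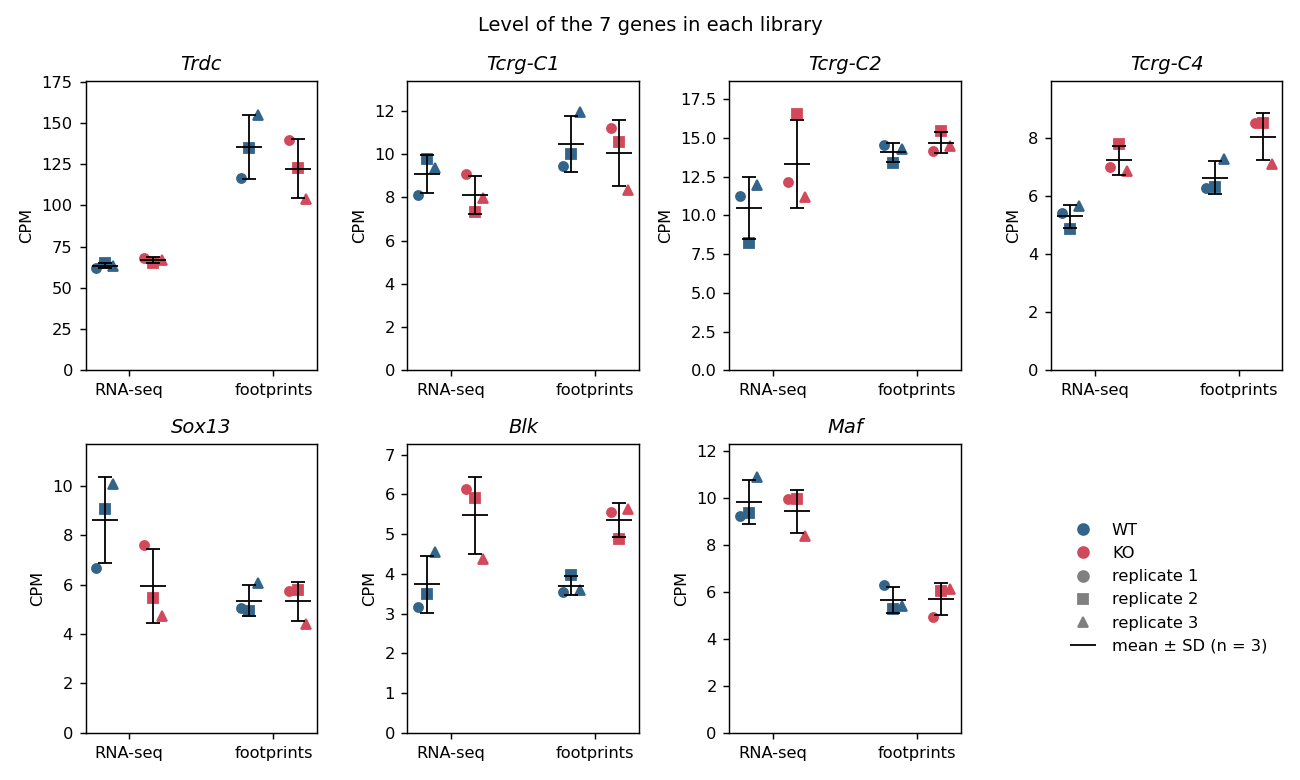
Levels (CPM, linear axes from 0) of the 7 genes in each of the 12 libraries, by assay, with WT in blue, KO in red, the replicate number as the marker shape and the mean ± SD (n = 3) in black. Blk footprints and Tcrg-C4 RNA-seq are the sets where all 3 KO libraries lie above all 3 WT libraries.

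Counted together, 0 of the 7 genes were called in RNA-seq, where 6.91% of all genes were called. At an unadjusted p under 0.05 in edgeR there were 2, Tcrg-C4 and Blk, against 23.8% of all genes, and DESeq2 called 0. In footprints 1 of the 7 was called, against 17.6% of all genes, or 9.25% counting only genes higher in KO, and 2, Blk and Tcrg-C4, had an unadjusted p under 0.05 in edgeR, against 33.1%. With the block this fell to 0 of the 7, against 3.02% of all genes, and in RNA-seq the block left 0 of the 7 against 0.806%. The median difference of the 7 genes was 0.08 in RNA-seq and 0.07 in footprints (log2), beside medians of -0.00 and -0.01 over all genes tested. In the authors' deposited table all 7 are listed as not significant in both assays. Its largest footprint value for these genes is that of Blk, a log2 fold change of 0.31 with an adjusted p of 0.29.

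Footprints beyond RNA were compared through the interaction term of genotype with assay in a fit of the 12 libraries. None of the 7 genes was called by edgeR or DESeq2, against 0.211% of all genes in edgeR, and with the block 0.0169%. At an unadjusted p under 0.05 in edgeR there was 1, against 14% of all genes. The largest was Sox13, at 0.61 ± 0.27 (log2, SE, 95% interval 0.03 to 1.20, edgeR adjusted p = 0.329), from the lower RNA-seq and level footprints given above. With the block its 95% interval was -0.25 to 1.42. Trdc stood at -0.21 ± 0.16 (SE, edgeR adjusted p = 0.595) and Blk at -0.02 ± 0.23 (SE, edgeR adjusted p = 0.986). For Blk the RNA-seq and footprint estimates were nearly the same in size, and the 95% interval of their difference ran from -0.52 to 0.49.

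**Figure D4:**
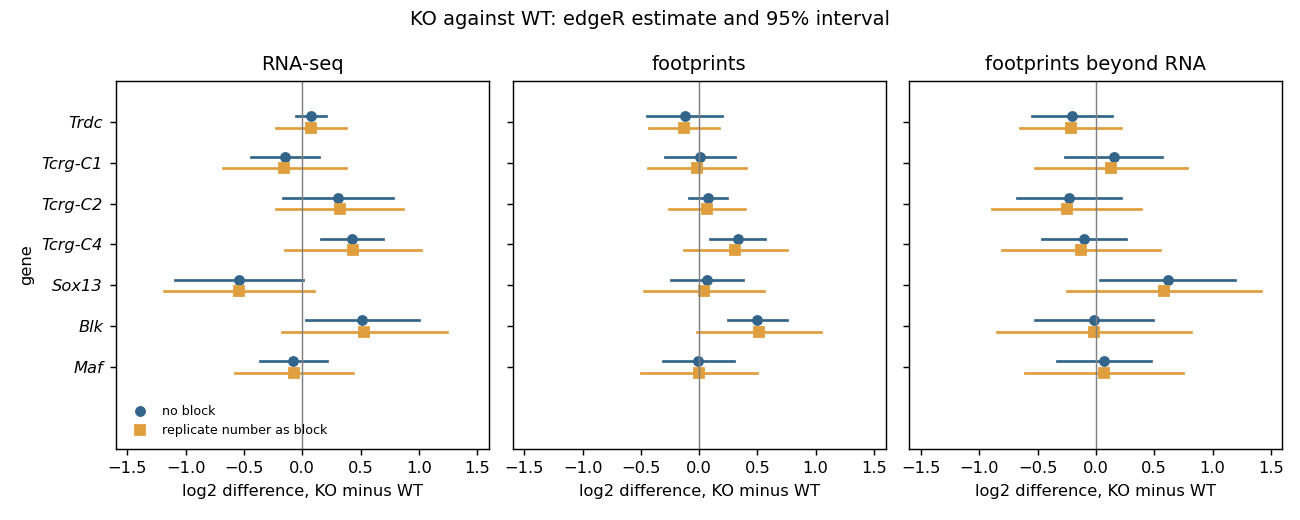
Points are edgeR estimates of the log2 difference, KO minus WT, with 95% intervals, for each of the 7 genes in RNA-seq, footprints and footprints beyond RNA, without a block (blue circles) and blocked on replicate number (orange squares). For Blk footprints the interval is 0.24 to 0.75 without the block and -0.02 to 1.04 with it.

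Within WT libraries the genes differed in footprints per unit of RNA. The ratio of footprint to RNA-seq CPM was 2.12 for Trdc, 1.24 for Tcrg-C4, 1.33 for Tcrg-C2 and 1.14 for Tcrg-C1, beside a median of 0.863 over 11854 genes. Blk was at 0.984, and the transcription factors were below the median, Sox13 at 0.616 and Maf at 0.571. The receptor chains thus had more footprints for their RNA than both transcription factors. In KO the ratios were 1.82 for Trdc, 0.889 for Sox13 and 0.600 for Maf. Untranslated ends of an mRNA give RNA-seq reads but few footprints, so the ratios also depend on the length of those ends, and no test was run on them.

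The genes whose profile over the 12 libraries was most like that of Trdc were Kif20b, Trbj1-4 and Chek1, with root mean square differences of 0.04, 0.04 and 0.05 in centred log2 CPM. Over the 8097 genes compared the median was 0.19. Of the other 6 genes, Tcrg-C1 was nearest, at 0.11 and rank 472, and Blk farthest, at 0.33 and rank 7643.

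The variable, diversity and joining segments of the gamma and delta loci, with Tcrg-C3, made up 32 rows. In the RefSeq gene order, Tcrg-C4 lies beside Trgj4, and Trgv1 (Tcrg-V1) comes next. Trgv2 lies between Trgj2 and Trgv1, toward Tcrg-C2, and Trdc lies between Trdj2 and Trdv5. In footprints 26 rows had at least 10 reads, 17 were tested and 0 were called by edgeR, with 4 at an unadjusted p under 0.05 and 1 call by DESeq2, beside 17.6% of all genes called and 33.1% at that p. In RNA-seq 19 had at least 10 reads, 13 were tested and 0 were called by edgeR, with 1 at an unadjusted p under 0.05 and 0 by DESeq2, beside 6.91% and 23.8% of all genes. The median difference of those tested was 0.12 in footprints and -0.13 in RNA-seq (log2). Of the rows with at least 10 reads, 7 of 26 in footprints and 5 of 19 in RNA-seq did not overlap between genotypes. Over all genes tested, 38.1% and 30.9% did not overlap.

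Near Tcrg-C4, Trgj4 footprints stood at 2.23, 2.35 and 1.90 CPM in WT and at 2.78, 2.60 and 3.44 CPM in KO, all KO libraries above all WT libraries, as in 18.5% of all genes (38.1% in either direction). That difference was 0.35 (log2) and did not pass (edgeR adjusted p = 0.266), and the Trgj4 RNA-seq levels overlapped, on 31 reads. Tcrg-V1, the variable segment nearby, did not overlap in RNA-seq, at 0.536 ± 0.113 CPM in WT against 1.02 ± 0.154 CPM in KO (SD, n = 3 each) on 30 reads, and overlapped in footprints, with a difference of 0.06 (log2, edgeR adjusted p = 0.873). Trgv2, on the Tcrg-C2 side beside Trgj2, was in RNA-seq at 4.45, 4.18 and 4.82 CPM in WT and at 5.41, 5.92 and 5.11 CPM in KO. These groups also did not overlap, and in RNA-seq all KO libraries lay above all WT libraries in 15.5% of all genes tested. Trgv2 footprints overlapped, at 27.8 ± 4.98 CPM in WT against 34.5 ± 6.57 CPM in KO (SD, n = 3 each). Tcrg-V4, a variable segment of the Tcrg-C1 group common in adult thymus, overlapped in both assays, with 0.46 ± 0.22 (log2, SE, edgeR adjusted p = 0.346) in RNA-seq and 0.14 ± 0.17 (SE, edgeR adjusted p = 0.62) in footprints. Tcrg-V5 and Tcrg-V6, used by the fetal waves of gamma-delta cells, had 25 and 32 footprint reads over all libraries. Tcrg-V7, used by intestinal gamma-delta cells, had 43.

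On the delta side, Trdv2-2 had no read in 1 library of each assay. Its footprints were at 7.50, 7.66 and 12.98 CPM in WT and at 4.17, 3.90 and 0 CPM in KO. WT 3 was the high library and KO 3, with no read, the low one. RNA-seq gave 3.18, 3.35 and 6.89 CPM in WT and 2.78, 2.84 and 0 CPM in KO, with the same libraries highest and at 0. The differences were -1.42 ± 0.47 (log2, SE, edgeR adjusted p = 0.0864) in footprints and -1.45 ± 0.77 (SE, edgeR adjusted p = 0.314) in RNA-seq, and neither passed. Without KO 3 they were -1.17 and -0.69.

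Trdv5, just beyond Trdc, stood at 8.30, 8.90 and 8.72 CPM in WT footprints and at 10.9, 10.1 and 10.3 CPM in KO. All KO libraries lay above all WT libraries, as in 18.5% of all genes tested in footprints. The difference of 0.27 ± 0.07 (log2, SE) did not pass (edgeR adjusted p = 0.0694). Trav4-4-dv10, a variable segment that alpha and delta chains can share, was at 3.29 ± 0.74 CPM (SD, n = 3) in WT footprints and 6.14 ± 1.53 CPM (SD, n = 3) among the KO libraries. It missed the threshold in edgeR (0.76 ± 0.21, log2, SE; adjusted p = 0.0517) and passed in DESeq2 (adjusted p = 0.0429). Trav15-2-dv6-2, also shared, was at 0.71 ± 0.23 in footprints (SE, edgeR adjusted p = 0.0812) and -0.52 ± 0.18 in RNA-seq (SE, edgeR adjusted p = 0.402). Trdv1 was at -0.59 ± 0.22 in RNA-seq (SE, edgeR adjusted p = 0.207) and -0.12 ± 0.07 in footprints (SE, edgeR adjusted p = 0.27).

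Other regulators and receptors of gamma-delta thymocytes were given by 44 genes. In footprints 38 were tested, 7 were called higher and 5 lower in KO, beside 9.25% and 8.34% of all genes. With the block 2 and 2 were called, beside 3.02% of all genes in either direction. In RNA-seq 34 were tested, 1 was called higher and 5 lower, beside 3.48% and 3.43% of all genes. With the block 0 were called, beside 0.806% of all genes in either direction. The medians were -0.00 in footprints and -0.08 in RNA-seq (log2). Most of these genes are also expressed by alpha-beta or NKT thymocytes, and 8 NKT and innate-like markers were measured in the same libraries. They summed to 151 to 158 CPM in WT and 122 to 124 CPM in KO RNA-seq, and to 151 to 155 CPM in WT and 117 to 120 CPM in KO footprints. Of these markers, 3 of 4 tested in RNA-seq and 6 of 7 tested in footprints were called lower, and with the block 0 and 2. Over all genes 3.43% and 8.34% were called lower, and with the block 0.806% and 3.02% in either direction. Il2rb, Zbtb16, Tbx21 and Ifng are in both lists. The part of NKT cells in these differences was not tested.

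The genes called in footprints both with and without the block numbered 4. Tox, a nuclear factor induced by receptor signals, rose from 208 ± 12.5 to 349 ± 20.0 CPM (SD, n = 3 each), a difference of 0.74 ± 0.06 (log2, SE, edgeR adjusted p = 0.00118, and 0.00222 with the block). Egr1, an immediate early gene of receptor signalling, rose by 0.57 ± 0.13 (log2, SE, edgeR adjusted p = 0.0319, and 0.0491 with the block). Il2rb, a receptor chain for interleukins 2 and 15, fell by 0.65 ± 0.09 (log2, SE, edgeR adjusted p = 0.00598, and 0.0383 with the block). Tox and Il2rb kept the footprint call in 6 of 6 fits that left out 1 library, and Egr1 in 2 of 6, with edgeR adjusted p from 0.0388 to 0.0795.

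The remaining one was 5830411N06Rik, a scavenger receptor gene known as Scart2 and used as a marker of gamma-delta T cells. Its footprints were at 35.2, 18.6 and 30.1 CPM in WT and at 6.31, 13.1 and 8.35 CPM in KO, with no overlap. It fell by 1.51 ± 0.34 (log2, SE, edgeR adjusted p = 0.0289, and 0.0302 with the block), and the call held in 2 of 6 fits that left out 1 library (edgeR adjusted p from 0.0196 to 0.0749). In RNA-seq it fell by 1.33 ± 0.27 (SE, edgeR adjusted p = 0.0381, and 0.0629 with the block), from 20.1 ± 4.80 to 8.33 ± 2.64 CPM (SD, n = 3 each). Its relative Cd163l1, singled out after its values were seen, was at 7.64 ± 2.73 CPM in WT against 2.62 ± 1.81 CPM in KO RNA-seq (SD, n = 3 each) and did not pass (-1.66 ± 0.48, log2, SE; edgeR adjusted p = 0.0978). Its footprints overlapped, at -0.78 ± 0.52 (log2, SE, edgeR adjusted p = 0.348), and ranged from -1.89 to -0.40 when 1 library was left out.

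In RNA-seq without the block, Il2rb fell by 1.08 ± 0.20 (log2, SE, edgeR adjusted p = 0.0316, and 0.0562 with the block) and Nt5e, which encodes the surface enzyme CD73, by 0.87 ± 0.11 (SE, edgeR adjusted p = 0.0106, and 0.323 with the block). Each kept that call in 2 of 6 fits that left out 1 library. Further genes were singled out after their values were seen. Zbtb16, which encodes PLZF, fell by 1.71 ± 0.37 in RNA-seq (log2, SE, edgeR adjusted p = 0.0443, and 0.152 with the block) and by 1.55 ± 0.38 in footprints (SE, edgeR adjusted p = 0.0366, and 0.144 with the block), and leaving out 1 library ended the first call in 6 of 6 fits and the second in 5 of 6. In footprints without the block, Il1r1, the interleukin-1 receptor, fell by 1.53 ± 0.21 (edgeR adjusted p = 0.00622, and 0.149 with the block) and Rora by 1.02 ± 0.11 (edgeR adjusted p = 0.00326, and 0.127 with the block), on 76 and 200 reads. Their RNA-seq levels overlapped, at -0.16 ± 0.16 (log2, SE, edgeR adjusted p = 0.749) for Il1r1 and -0.15 ± 0.11 (SE, edgeR adjusted p = 0.463) for Rora. Called higher in footprints, again without the block only, were Egr3 at 0.98 (log2, edgeR adjusted p = 0.00585), Etv5 at 0.59 (edgeR adjusted p = 0.0161), the costimulatory receptor gene Cd28 at 0.53 (edgeR adjusted p = 0.0104), Cd5 at 0.31 (edgeR adjusted p = 0.0265) and Tcf12 at 0.14 (edgeR adjusted p = 0.0288). With the block their adjusted p values in edgeR were 0.0766, 0.152, 0.0719, 0.131 and 0.446.

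**Figure D5:**
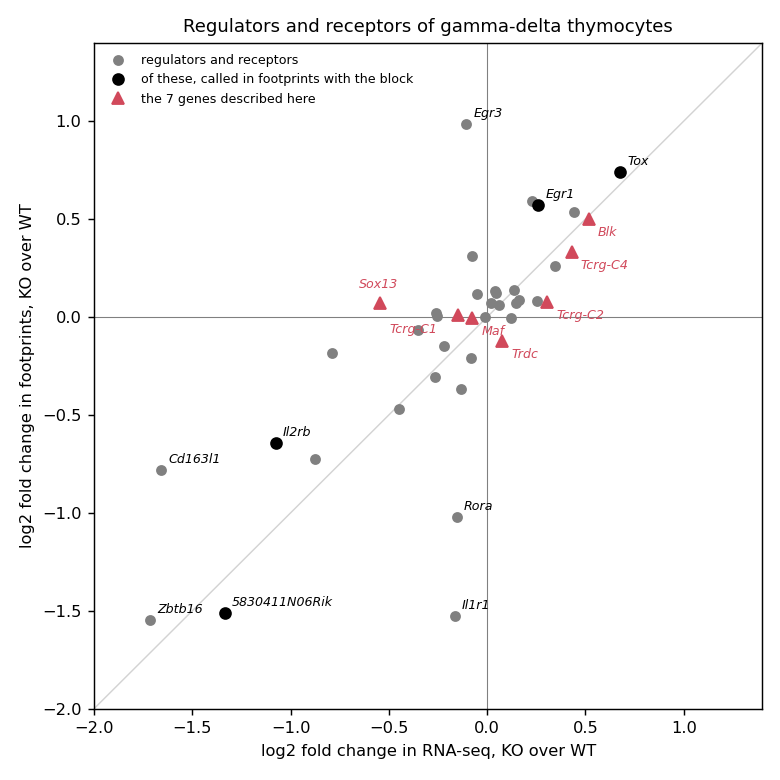
The x axis is the log2 fold change in RNA-seq and the y axis that in footprints (KO over WT) for the 34 regulators and receptors tested in both assays (grey, or black where called in footprints with the block) and the 7 genes (red triangles); the diagonal marks equal change. The 7 genes lie between -0.54 and 0.52 in RNA-seq and between -0.13 and 0.50 in footprints, while 5830411N06Rik lies at -1.33 and -1.51.

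The kinases around Blk were given by 11 genes, of which 10 were tested in each assay. In RNA-seq edgeR and DESeq2 called 0, with 4 at an unadjusted p under 0.05 in edgeR, beside 23.8% of all genes at that p. In footprints 2 were called, 1 in each direction, beside 17.6% of all genes, and 0 with the block, beside 3.02%. Both calls are of kinases that act at the receptor: Syk, which is not of the Src family, rose by 0.81 ± 0.21 (log2, SE, edgeR adjusted p = 0.045, and 0.0582 with the block), and Lck fell by 0.12 ± 0.03 (SE, edgeR adjusted p = 0.0457, and 0.519 with the block). Leaving out any 1 of the 6 libraries ended both calls, with edgeR adjusted p from 0.0562 to 0.103 for Syk and from 0.0871 to 0.179 for Lck. Syk footprints were at 25.3, 39.3 and 36.5 CPM in WT and at 73.0, 49.2 and 53.8 CPM in KO. Src, Yes1, Fyn and Csk did not pass in either assay, with Src at -0.83 ± 0.20 in RNA-seq (SE, edgeR adjusted p = 0.0622) and -0.59 ± 0.17 in footprints (SE, edgeR adjusted p = 0.108).

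Relatives of Maf and Sox13 were given by 10 genes, of which 7 were tested in each assay. By edgeR and DESeq2, 0 were called in either assay, with 1 in each at an unadjusted p under 0.05 in edgeR, beside 23.8% of all genes in RNA-seq and 33.1% in footprints. Maff, a small Maf protein, was lowest in both, at -0.65 ± 0.19 in RNA-seq (log2, SE, edgeR adjusted p = 0.104) and -0.71 ± 0.27 in footprints (SE, edgeR adjusted p = 0.121). Sox5, the SoxD relative of Sox13, was at -0.61 ± 0.27 (SE, edgeR adjusted p = 0.292) and -0.58 ± 0.29 (SE, edgeR adjusted p = 0.296), on 64 and 62 reads.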

How the data were processed

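RNA-seq and ribosome footprint libraries of mouse thymocytes were taken as the authors deposited them, as 1 table of read counts per gene for each assay, which the labels call adjusted. The values are whole-number counts. Per the submitters' processing notes the tools were FastQC, Bowtie2 2.5.1, STAR 2.7.10a, HTSeq 2.0.3 and DESeq2 1.40.2, with no role given. For the adjustment, the genome build and strandedness, the sources used here give nothing. The 5 summary rows of the counter were left out: reads in no gene were 50.9% to 57.1% of an RNA-seq library and 5.32% to 6.39% of a footprint library, and ambiguous reads 1.38% to 1.68% and 2.98% to 3.65%. A second deposited table per assay holds the authors' own log2 fold changes and p-values, and 12 further columns of per-library values in it were not used.

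Counts were fitted in R 4.3.3 with edgeR 4.0.16 (TMM scaling, filterByExpr with a minimum count of 10, quasi-likelihood test, genotype as the term), each assay alone, with Benjamini-Hochberg adjustment over all genes tested and a threshold of 0.05. Footprints beyond RNA were tested through the genotype-by-assay interaction term. Levels are CPM over TMM-scaled totals of the tested genes. Intervals are 95%. The scripts were tested on simulated data whose libraries were independent, not mirrored, so that test does not bear on the error rates here. DESeq2 1.42.0, other size factors, no filter, a threshold of 0.1, a joint fit, a replicate block and leaving out each library were tried.

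The design text gives 3 mice per genotype. Whether each library is a separate mouse is not spelled out, so p-values measure the spread between these libraries. The 7 genes and all lists were chosen with earlier results of these data known. From each list, genes called with the block are named, then those with the smallest adjusted p, up to 4 per list and assay, and segments with at least 10 reads. The genes most like Trdc are the 3 with the smallest difference, among genes with a mean log2 CPM of at least 3. Some genes of the lists are not reported here by name. Nothing was read from values to group libraries.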

Additional observations from a re-analysis of the deposited data

Results flagged for a closer look

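Egr3, an early growth response gene of receptor signalling, was the 1 gene of the lists whose genotype difference was called as differing between the assays. The KO effect in footprints exceeded that in RNA-seq by 1.09 ± 0.18 (log2, SE, edgeR adjusted p = 0.0294 for the interaction). Egr3 footprints were at 3.15, 2.63 and 2.56 CPM in WT and at 4.92, 5.85 and 6.14 CPM in KO, without overlap, and its RNA-seq levels overlapped, at 11.04 ± 0.774 CPM in WT against 10.2 ± 0.768 CPM in KO (SD, n = 3 each). With the replicate block within each assay the edgeR adjusted p was 0.998, and DESeq2 gave 1.09 with an adjusted p of 0.0535. With genotype and number taken as 1 mouse over both assays the difference was 1.11 with an edgeR adjusted p of 0.0362. Leaving out 1 library gave 1.02 to 1.20 and ended the call each time, with edgeR adjusted p from 0.0519 to 0.124. None of the 7 gamma-delta genes was flagged.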

How the results depend on the processing

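The replicate numbers do not pair the libraries in the usual sense, since same-numbered WT and KO libraries deviated in opposite directions (correlations of -0.99 to -0.98 in RNA-seq and -0.995 to -0.994 in footprints). The tests without the block are given first, although they treat the libraries as independent, which mirrored libraries are not. For the 7 genes the block gave a larger SE, as 0.14 against 0.05 for Trdc RNA-seq and 0.24 against 0.11 for Blk footprints. Adjusted p values without the block may therefore be too small. No crossed pairing was tried. With the replicate block, calls over all genes fell to 110 of 943 in RNA-seq, to 408 of 2376 in footprints and to 2 of 25 for footprints beyond RNA, and all of the remaining genes were also called without it. Of the 7 genes, 0 were called in footprints with the block, against 1 without, and the block turned Tcrg-C1 footprints to -0.0156 and Bach2 footprints to -0.00282 (log2).

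DESeq2 called 532 genes in RNA-seq, 1235 in footprints and 54 beyond RNA, and 0 of the 7 in footprints, and turned Tcrg-C1 footprints to -0.0115 and Maf footprints to 0.00134. At a threshold of 0.1, edgeR called 1742 genes in RNA-seq, 131 beyond RNA and 2 of the 7 in footprints. The joint fit, which used no block, called 1557 genes in RNA-seq and 2 of the 7 in footprints. Leaving out 1 library gave 215 to 323 genes in RNA-seq, 1035 to 1554 in footprints, 6 to 24 beyond RNA and 0 to 0 of the 7 in footprints. Differences near 0 changed sign in that exercise: in RNA-seq Maf lay between -0.127 and 0.0107 and Mafg between -0.197 and 0.0946, in footprints Tcrg-C1 between -0.0612 and 0.0931, Maf between -0.0995 and 0.105 and Bach2 between -0.112 and 0.0694, and beyond RNA Blk between -0.192 and 0.0927 and Maf between -0.0275 and 0.174. Of the regulators and receptors, 0 to 2 in RNA-seq and 7 to 9 in footprints were then called. The cause was not tested. The size factors and the low-count filter changed no call of the 7 genes. Sox13 had as few as 18 footprint reads in a library and Blk 20 RNA-seq reads, which limits what small differences these libraries could show.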
